A study of Homo sapiens with 6 samples.

Results

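The neutrophil CXC chemokines are 8 genes of 1 gene family, CXCL1, CXCL2, CXCL3, CXCL5, CXCL6, CXCL8 (interleukin-8), PPBP and PF4. They were measured in stably transfected MCF10A cells, an established non-tumorigenic line of human mammary epithelium. The genes were chosen by family membership with the differences between the groups already known, so every comparison of them between the groups is a description and carries no test. They make up 8 of the 19775 genes measured, with 13 of the 54613 probe sets that are not array controls, each naming 1 of these genes alone. No probe set with several gene symbols included any of them.

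There were 6 samples, 1 array each, in a pair of groups. The control group was 3 samples of 1 stable clone carrying a shRNA with no target (MCF10A-CV), and the shFRY group was 3 samples of 1 stable clone carrying a shRNA against FRY (MCF10A-shFRY). FRY encodes a large protein that binds NDR kinases and microtubules. Both clones had been under puromycin, grew as monolayers in mammary epithelial medium with epidermal growth factor, insulin, hydrocortisone and pituitary extract, and were harvested at 70% confluence, per the labels. A clone difference and a FRY difference therefore cannot be told apart, and samples of a group differed in passage, so a p-value here reflects variation among samples of 1 clone each, which may be technical. FRY, about 60% below its MCF10A level in the shFRY clone per the labels, read 4.23, 3.55 and 3.81 in control and 2.88, 3.31 and 3.14 in shFRY at 204072_s_at (log2 difference -0.75, SE 0.19, limma adjusted p = 0.0223 over all probe sets). Its 3 other probe sets had means lower by 0.32 to 0.49 and did not pass.

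The values are RMA values on the log2 scale, in which 1 unit is a doubling of the signal, and a difference is the mean of shFRY minus the mean of control. The sample medians lay between 3.02 and 3.06. The beta-actin control probe sets, whose 3' minus 5' difference grows with shorter RNA or amplification, stood at 2.52 ± 0.19 in control and 2.87 ± 0.03 in shFRY (SD, n = 3 each), so this measure moved with the group. The GAPDH control probe sets did not show such a shift. Their 3' and 5' means were 11.39 and 11.48 in control and 10.94 and 11.02 in shFRY. A group difference in RNA length is therefore not established. Of the 6 measured mammary epithelial markers 2 passed as higher and 2 as lower in limma, and EPCAM (10.08 ± 0.01 in control and 10.07 ± 0.03 in shFRY) and KRT5 (11.47 ± 0.07 and 11.56 ± 0.05) had high signal in both groups. KRT14 rose from 7.89 ± 0.16 to 10.81 ± 0.06 and CDH1 by 0.37, KRT8 fell by 0.93 and KRT18 by 0.37 (limma adjusted p = 2.26e-06, 0.0346, 0.000305 and 0.0251), although KRT18 did not pass in 5 of the 6 fits that left out 1 sample (all but that without control sample 2; adjusted p 0.0519 to 0.083 in the 5), and CDH1 in 5 of them (all but that without shFRY sample 3; 0.0586 to 0.11). With the beta-actin value added to the fit as a covariate, KRT14 still passed (2.95, limma adjusted p = 0.00178). KRT8 (-0.89, adjusted p = 0.0578), KRT18 (-0.27, adjusted p = 0.525) and CDH1 (0.16, adjusted p = 0.736) did not. The summed log2 values of the 6 epithelial markers were 60.28 to 61.01 in control and 62.74 to 62.93 in shFRY. Of 9 measured leukocyte markers 0 passed as higher and 1, PTPRC, as lower (limma, with 0 and 1 at an unadjusted p under 0.05), and their summed log2 values were 21.67 to 23.07 in control and 20.99 to 21.63 in shFRY. Of 5 measured platelet and megakaryocyte markers 0 passed in either direction (1 higher and 0 lower at an unadjusted p under 0.05), with sums of 15.05 to 15.75 and 14.53 to 15.82. The leukocyte and platelet markers are shown because leukocytes make several of the chemokines and platelets store the products of PPBP and PF4. Over all genes 13.7% passed as higher and 16.0% as lower, so nothing is read from the counts in marker lists this short.

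CXC chemokines are small secreted proteins that bind heparan sulphate on cell surfaces and guide white blood cells along a gradient. The members with a glutamate-leucine-arginine motif before the paired cysteines act through the receptors CXCR1 and CXCR2 and call in neutrophils; PF4, which lacks that motif, is not a classical ligand of them. Epithelial cells switch on CXCL8 and the CXCL1, CXCL2 and CXCL3 trio after interleukin-1, TNF or bacterial products, mainly through the transcription factor NF-kB, whereas PPBP and PF4 are best known from megakaryocytes and platelets.

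The stretches before the transcription starts are shown because the family members differed so widely in response while lying next to one another, and most of them share a match to the NF-kB consensus. RefSeq promoters (GRCh38.p14) were found for 7 of the 8 genes and missed PF4. The 120 bases before the start are given 5' to 3' on the strand of the gene, with the NF-kB consensus match in capitals, except in CXCL8, which has no consensus match and where capitals mark the 9-base core GGAANTTCC. They lie at chr4:73869273-73869392 for CXCL1, chr4:73740449-73740568 for CXCL8 and chr4:73836558-73836677 for CXCL6, all on the plus strand, and at chr4:74099196-74099315 for CXCL2, chr4:74038690-74038809 for CXCL3 and chr4:73998678-73998797 for CXCL5, all on the minus strand.
CXCL1: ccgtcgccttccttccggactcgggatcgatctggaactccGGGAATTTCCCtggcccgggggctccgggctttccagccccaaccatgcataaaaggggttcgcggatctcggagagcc
CXCL2: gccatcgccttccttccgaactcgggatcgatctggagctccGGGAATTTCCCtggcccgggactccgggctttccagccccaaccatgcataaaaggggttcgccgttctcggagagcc
CXCL3: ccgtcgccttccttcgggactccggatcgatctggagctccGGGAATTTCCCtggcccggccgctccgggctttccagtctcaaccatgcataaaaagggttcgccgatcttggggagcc
CXCL8: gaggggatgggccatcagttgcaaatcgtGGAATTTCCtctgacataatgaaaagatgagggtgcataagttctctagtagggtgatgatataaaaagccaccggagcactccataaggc
CXCL5: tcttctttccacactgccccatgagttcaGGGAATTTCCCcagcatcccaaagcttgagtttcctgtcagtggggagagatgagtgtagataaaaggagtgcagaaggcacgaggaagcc
CXCL6: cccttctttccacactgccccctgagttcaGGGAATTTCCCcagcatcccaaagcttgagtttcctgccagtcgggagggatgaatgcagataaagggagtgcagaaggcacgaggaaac

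An NF-kB consensus match, searched on both strands in the 250 bases before the start, was present in CXCL1, CXCL2, CXCL3, CXCL5 and CXCL6, that is in 5 of 7 member promoters, against 5.21% of 35116 RefSeq promoters. The 9-base core GGAANTTCC, which overlaps the consensus and is its own reverse complement, was present in these 5 and in CXCL8, against 0.826% of all promoters. The 6 core matches lay between bases -91 and -69 from the start. The TATAAA motif matched in CXCL8 and PPBP, both at bases -31 to -26, against 10.7% of all promoters, and the AP-1 motif TGANTCA matched in CXCL8 only, at bases -137 to -131, against 6.57%. Aligned over these 250 bases, CXCL1, CXCL2 and CXCL3 were 70.1% to 81.4% identical to one another, and CXCL5 was 85.3% identical to CXCL6. Identity between those sets was 52.3% to 54.2%, and CXCL8 was 43.9% to 52.2% identical to any other member. By sequence the promoters thus form a trio and a pair, both with the NF-kB consensus, beside CXCL8 and PPBP.

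**Figure D1:**
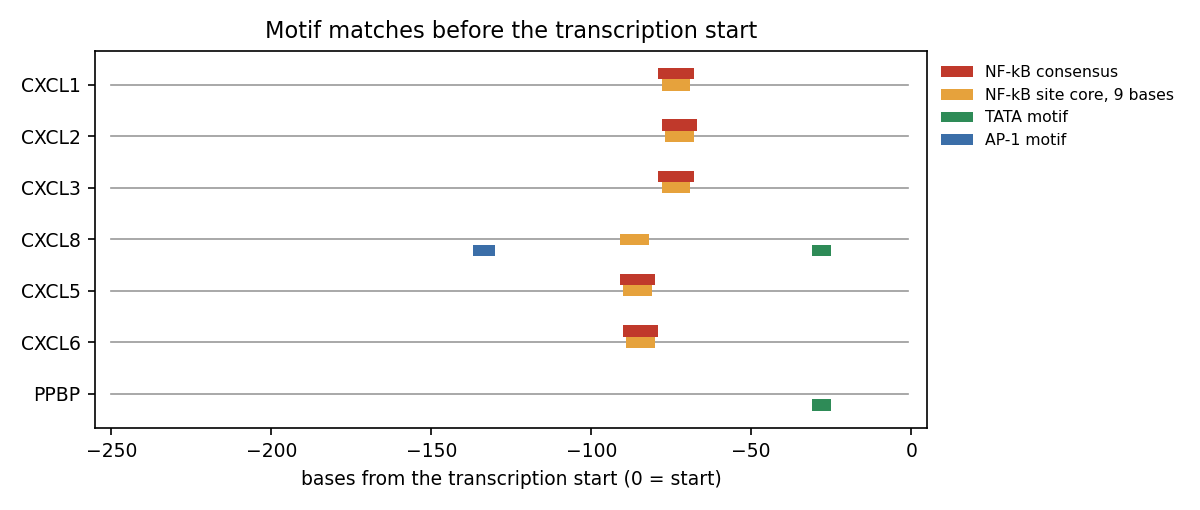
Motif matches in the 250 bases before the transcription start of 7 chemokine genes, with the distance from the start in bases on the x axis and 1 line per gene; bars are matches on either strand. The NF-kB core lies at nearly the same distance in CXCL1, CXCL2, CXCL3, CXCL8, CXCL5 and CXCL6, and PPBP has none.

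Among the members, CXCL1, CXCL2, CXCL3 and CXCL8 were far higher in shFRY, PF4 was slightly higher, and CXCL5, CXCL6 and PPBP overlapped between the groups. CXCL1, a ligand of CXCR2, read 3.07, 3.52 and 3.30 in the 3 control samples and 10.54, 10.91 and 10.91 in the 3 shFRY samples. No sample came near the other group, since the highest control and the lowest shFRY value were 7.03 apart. The log2 difference was 7.49 (SE 0.16). The control signals of the family were dim and no detection call was used, so here and below a difference is one of array signal, and the control level is not shown to be above background.

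CXCL3, the closest relative of CXCL1 by promoter sequence among the trio, read 3.55, 3.56 and 3.20 in control and 10.50, 10.91 and 10.74 in shFRY. The groups again stood wide apart, by 6.94, and the log2 difference was 7.28 (SE 0.15). With 1 probe set per gene, these were the largest and the second largest log2 differences upward among the 19775 genes. CXCL2 (209774_x_at) was number 3 and CXCL8 (211506_s_at) number 7.

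CXCL2, another ligand of CXCR2, had 3 probe sets, with control signals at percentiles 57.1, 16.0 and 18.3 of all probe sets in the order given here. Its probe set 209774_x_at read 3.56, 3.67 and 3.81 in control and 9.72, 9.77 and 9.88 in shFRY, a log2 difference of 6.11 (SE 0.11). Probe set 230101_at read 1.66, 1.58 and 1.37 in control and 3.76, 4.54 and 4.54 in shFRY, a log2 difference of 2.74 (SE 0.21). Probe set 1569203_at read 1.44, 1.87 and 1.52 in control and 3.60, 3.91 and 3.06 in shFRY, a log2 difference of 1.92 (SE 0.22). All 3 were higher in every shFRY sample than in any control sample, and the sizes of their differences cannot be set against one another because the last 2 start from signals as low as those of CXCL5 and CXCL6. The suffix _x_at marks a probe set that may bind related transcripts, and CXCL1, CXCL2 and CXCL3 are closely related paralogs, so the split of signal among these genes is uncertain.

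CXCL8, the main human neutrophil chemokine and a ligand of both receptors, read 2.65, 2.53 and 2.39 in control and 9.07, 9.52 and 9.84 in shFRY at 202859_x_at. The log2 difference there was 6.95 (SE 0.19), from a control signal at percentile 41.8 of all probe sets. At 211506_s_at it read 3.67, 3.29 and 3.08 in control and 8.55, 8.81 and 9.30 in shFRY, a log2 difference of 5.54 (SE 0.21). Both probe sets separated the groups, by 6.43 and 4.88, and in both shFRY sample 1 was the lowest and sample 3 the highest of its group.

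CXCL5 and CXCL6, which act on CXCR2 and on both receptors, overlapped between the groups at every probe set; their promoters carry the NF-kB match shown above for CXCL1. CXCL6 read 1.76, 1.46 and 1.27 in control and 1.38, 1.87 and 1.58 in shFRY, a log2 difference of 0.11 with a 95% confidence interval of -0.27 to 0.50. CXCL5 read 1.89, 1.86 and 1.87 in control and 1.84, 1.92 and 1.89 in shFRY at 215101_s_at, a log2 difference of 0.01 (interval -0.21 to 0.23). The groups overlapped at both genes. At the other CXCL5 probe sets the log2 differences were 0.07 (interval -0.21 to 0.35) at 214974_x_at and 0.02 (interval -0.27 to 0.32) at 207852_at, and the groups overlapped there as well. The mean signals of CXCL5 and CXCL6 lay in the lowest 27.3% of probe sets on the control arrays and the lowest 26.1% on the shFRY arrays, so at this signal a low level cannot be told from none.

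PPBP, whose product is stored in platelets, read 1.11, 1.2004 and 1.42 in control and 1.49, 1.09 and 2.003 in shFRY, a log2 difference of 0.29 (interval -0.21 to 0.78) with overlapping groups. PF4, platelet factor 4, read 2.75, 2.93 and 2.86 in control and 3.25, 3.31 and 3.28 in shFRY. Its 3 shFRY samples lay above its 3 control samples by a narrow margin, with a log2 difference of 0.43 (SE 0.10). PF4 has a single probe set, of the _x_at kind, and its near-identical copy PF4V1 differed by 0.47 (limma adjusted p = 0.0871), so the 2 cannot be separated with certainty.

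**Figure D2:**
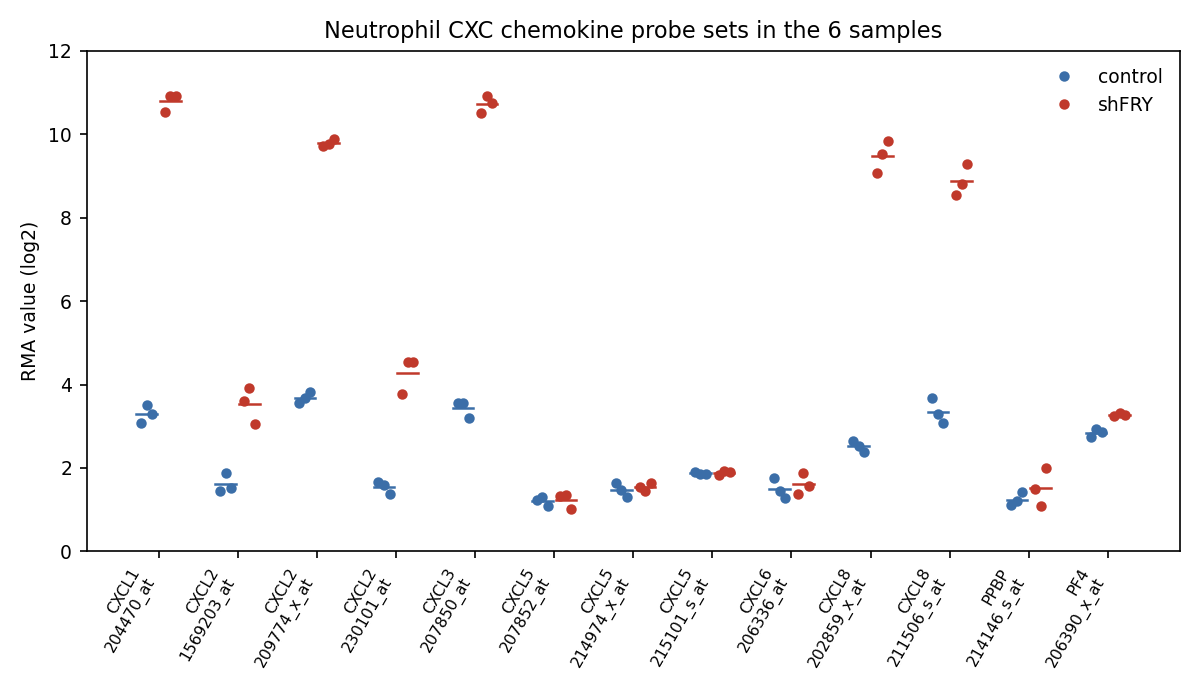
RMA values (log2) of the 13 probe sets of the 8 chemokine genes in the 3 control samples (blue) and the 3 shFRY samples (red); points are samples in replicate order and short lines are group means. The probe sets of CXCL1, CXCL2, CXCL3 and CXCL8 are higher in every shFRY sample, while those of CXCL5, CXCL6 and PPBP overlap.

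Counted over the family, 7 of 13 probe sets were at least 2-fold higher in shFRY, against 2.91% of all probe sets, and the other 6 were under 2-fold. A limma adjusted p under 0.05 with a higher mean was found at 8 of 13, the same 7 and PF4, against 10.9% of all probe sets. The groups did not overlap at those 8, against 20.2% of all probe sets that were higher without overlap. Because the genes were chosen with this contrast known, nothing is read from these counts. The median log2 difference was 1.92 over the 13 probe sets. The members nearest to the 2-fold line were CXCL2 at 1569203_at on the upper side (1.92) and PF4 on the lower (0.43). On the control arrays those 7 had mean signals from percentile 16.0 to percentile 57.1, so the folds start from dim signals.

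Within the shFRY group sample 1 was the lowest of the 3 at 6 of the 7 high probe sets, and sample 3 was the lowest at CXCL2 1569203_at. Sample 1 stood below the group mean by 0.25 at CXCL1 204470_at, by 0.22 at CXCL3 207850_at, by 0.40 at CXCL8 202859_x_at and most, by 0.52, at CXCL2 230101_at. Control samples had no common order, sample 1 being lowest at 3 of the 7 and sample 3 at 4. When each sample's beta-actin value was added to the fit as a covariate, the log2 differences were 7.30 (SE 0.31) for CXCL1, 7.60 (SE 0.27) for CXCL3, 5.89 (SE 0.21) for CXCL2 209774_x_at and 7.26 (SE 0.36) and 6.16 (SE 0.34) for the CXCL8 probe sets. CXCL6 was then at 0.54 (SE 0.29), CXCL5 214974_x_at at 0.40 (SE 0.20) and PF4 at 0.33 (SE 0.20).

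All 8 genes lie on chromosome 4 in 1 block, and the strongly and weakly differing members are interspersed along it. In RefSeq order the measured genes of the block were CXCL8, CXCL6, PF4V1, CXCL1, PF4, PPBP, CXCL5, CXCL3, PPBPP2 and CXCL2. CXCL8 at one end and CXCL2 at the other, with CXCL1 and CXCL3 between them, had log2 differences from 5.54 to 7.49, and the 4 members between them were at 0.01 to 0.43. The relatives within the block that are not members, PF4V1 (0.47) and the pseudogene PPBPP2 (-0.10), did not pass (limma adjusted p = 0.0871 and 0.636).

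Of the 22 other genes measured there, 2 within the block and 10 on either side, 7 passed as higher in limma, or 31.8% against 13.7% of all genes, and 0 as lower (0 also at an unadjusted p under 0.05). On the CXCL2 side 6 of 10 passed, and on the CXCL8 side 1 of 10. EREG, an epidermal growth factor family ligand, rose from 6.002 ± 0.15 to 8.53 ± 0.25 (SD, n = 3 each; log2 difference 2.53, limma adjusted p = 1.64e-05). MTHFD2L, a mitochondrial folate enzyme gene that lies next to CXCL2, rose by 0.88 (adjusted p = 0.000586), and RASSF6, next to CXCL8, rose from 1.63 ± 0.35 to 3.59 ± 0.42 (adjusted p = 0.00054). LOC105377276 (0.56, adjusted p = 0.00805), RCHY1, a ubiquitin ligase gene (0.72, adjusted p = 0.00562), the growth factor gene BTC (0.82, adjusted p = 0.0294) and THAP6 (0.40, adjusted p = 0.0478) passed as well. BTC no longer passed without control sample 1 (0.63, adjusted p = 0.102), control sample 3 (0.85, adjusted p = 0.0675) or shFRY sample 1 (0.59, adjusted p = 0.0707). THAP6 no longer passed without control sample 1, 2 or 3 or shFRY sample 1 or 2 (adjusted p = 0.0632, 0.0773, 0.152, 0.104 and 0.137). When _s_at and _x_at probe sets were dropped RCHY1 stood at 0.09. With the beta-actin covariate only EREG of the 7 passed, while 6 of all 22 neighbours were higher at an unadjusted p under 0.05 in limma. RASSF6 (1.79), MTHFD2L (0.91) and THAP6 (0.68) then had differences near or above those without the covariate. LOC105377276 (0.30, SE 0.21), BTC (0.41, SE 0.44) and RCHY1 (0.26, SE 0.20) had smaller ones.

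**Figure D3:**
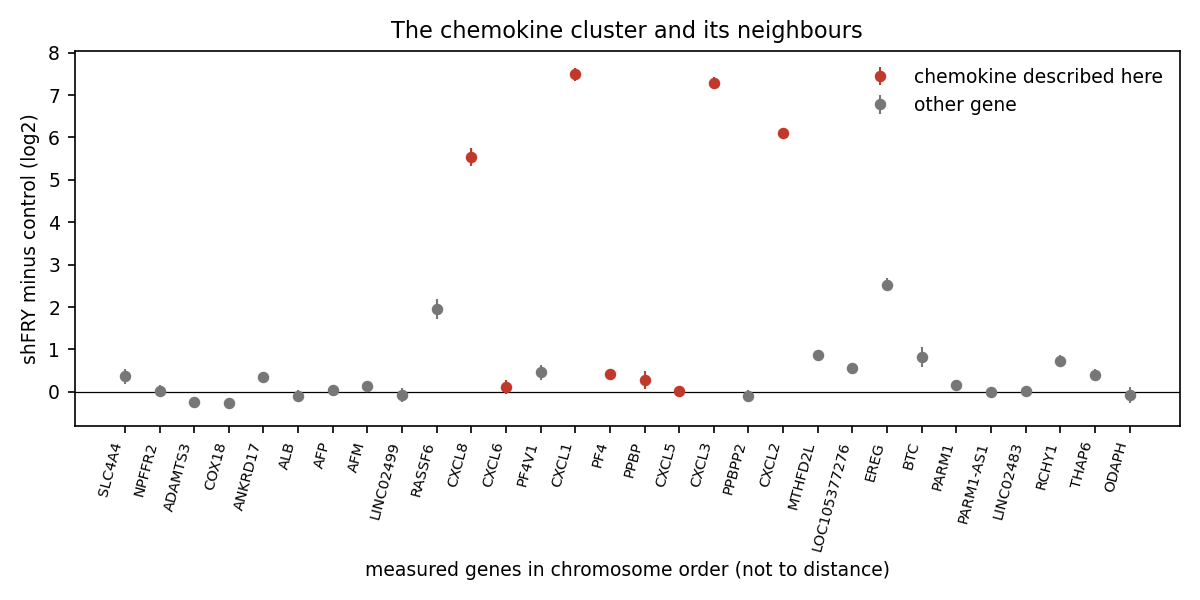
Log2 difference of shFRY minus control (y axis, with its standard error) for the measured genes of the chemokine block on chromosome 4 and 10 measured genes on either side, in chromosome order without distances; red points are the 8 chemokine genes. CXCL8, CXCL1, CXCL3 and CXCL2 stand between 5.54 and 7.49, and their neighbours within the block near 0.

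The receptors that would read these ligands were at low signal in both groups. CXCR1 read 2.22 ± 0.07 in control and 2.35 ± 0.19 in shFRY (SD, n = 3 each; log2 difference 0.12, limma adjusted p = 0.495), and CXCR2 1.92 ± 0.08 and 2.12 ± 0.17 (0.20, limma adjusted p = 0.251). Of 8 CXC chemokine receptor genes 0 passed as higher in limma and 1 as lower, against 13.7% and 16.0% of all genes. Their median log2 difference was 0.07, and 2 were higher at an unadjusted p under 0.05. The one that fell was CXCR4, the receptor of CXCL12, from 5.53 ± 0.11 to 2.92 ± 0.81 (limma adjusted p = 0.000852), at 1 of its 3 probe sets. The others were at -0.12 and -0.18, from dim control signals of 1.53 and 1.83 that leave little room for a fall. CXCR4 did not pass with the beta-actin covariate (-2.62, limma adjusted p = 0.092). ACKR3 passed as higher without control sample 1 (0.66, limma adjusted p = 0.0375) and CXCR6 without shFRY sample 3 (0.63, adjusted p = 0.0335). Of 9 other CXC chemokines, CXCL9 to CXCL17 and PF4V1, 0 passed in either direction in limma (1 higher and 1 lower at an unadjusted p under 0.05), and their log2 differences ran from -0.26 for CXCL12 to 0.47 for PF4V1. Beside the same shares of all genes, nothing is read from counts in lists as short as this and the receptor list. CXCL12 (limma adjusted p = 0.097) passed after another quantile normalization (-0.31, adjusted p = 0.0488).

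Genes that carry or trim chemokines at the cell surface were mixed, with 3 of 9 higher and 2 lower in limma (median 0.03), against 13.7% and 16.0% of all genes. This list too was chosen with earlier results of these data known, so nothing is read from its counts. The heparan sulphate carriers SDC1 (1.15, adjusted p = 0.000576) and SDC4 (1.11, adjusted p = 0.000333) rose and SDC2 (-1.28, adjusted p = 0.000472) fell. MMP9, a protease that can trim CXCL8, rose from 3.20 ± 0.17 to 4.39 ± 0.16 (adjusted p = 0.000322). ANPEP, an aminopeptidase, fell by 0.57 (limma adjusted p = 0.00233). Another of its probe sets stood at 0.18 when _s_at and _x_at probe sets were left out. That probe set was dim (2.26 in control, against 8.17 at the first), so it says little about the fall. With the beta-actin covariate SDC1, SDC2 and ANPEP had similar differences of 1.10, -1.11 and -0.60 and did not pass (adjusted p = 0.0842, 0.0917 and 0.129).

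Upstream, 9 of 21 genes for cytokines, receptors, adaptors and inhibitors in the pathways that drive these chemokines rose and 4 fell (median 0.16). Over all genes the median was 0.03, with 13.7% higher and 16.0% lower. The list was chosen with earlier results of these data known, so nothing is read from its counts. IRAK2, a kinase of interleukin-1 signalling, read 3.38, 4.27 and 3.83 in control and 9.13, 9.38 and 9.29 in shFRY (log2 difference 5.44, limma adjusted p = 2.26e-06). IL1A, which encodes interleukin-1 alpha, read 3.001, 3.13 and 3.001 in control and 8.35, 8.16 and 7.68 in shFRY at 210118_s_at (5.02, limma adjusted p = 1.21e-06). Its other probe set, 208200_at, was at 0.06 and dim in both groups (means of 2.86 in control and 2.92 in shFRY). The bacterial lipoprotein receptor gene TLR2 (3.69, adjusted p = 9.33e-06), the interleukin-1 receptor antagonist gene IL1RN (2.33, adjusted p = 0.000192) and the coreceptor gene IL1RAP (1.62, adjusted p = 8.68e-05) rose too. The 4 that fell were all receptor genes: TLR4 (-1.43, limma adjusted p = 0.000883), IL17RA (-1.11, adjusted p = 0.00104), TLR3 (-0.84, adjusted p = 0.0109) and the interleukin-1 receptor gene IL1R1 (-0.95, adjusted p = 0.0498). IL1R1 did not pass without control sample 1, 2 or 3 or shFRY sample 1 or 2 (adjusted p = 0.137, 0.0946, 0.123, 0.0547 and 0.0851). Nor did it pass after median centring (-0.93, adjusted p = 0.0561) or another quantile normalization (-0.89, adjusted p = 0.061). When _s_at and _x_at probe sets were dropped, IL1R1 stood at -1.35 (limma adjusted p = 0.000224). With all its probe sets averaged, IL1R1 stood at -1.15 (limma adjusted p = 0.00102). With the beta-actin covariate none of the 4 that fell passed (differences of -1.24, -1.21, -1.33 and -0.83 in the order named above).

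Of 16 NF-kB genes 12 were higher and 0 lower in limma (0 lower at an unadjusted p under 0.05), with a median log2 difference of 0.91. Over all genes, the background for this list and the AP-1 and C/EBP list below, 13.7% were higher and 16.0% lower. Both lists were chosen with earlier results of these data known, so nothing is read from their counts. The inhibitors TNIP3 (6.05, adjusted p = 9.91e-08), TNFAIP3 (4.33, adjusted p = 8.19e-07), NFKBIA (1.67, adjusted p = 7.72e-05) and TNIP1 (1.67, adjusted p = 2.95e-05) and the subunit gene NFKB2 (2.43, adjusted p = 1.04e-05) had the largest differences. TNFAIP3, which encodes the NF-kB inhibitor A20, read 3.27, 3.20 and 3.47 in control and 7.80, 7.64 and 7.49 in shFRY. The count was 7 with the beta-actin covariate and 8 when _s_at and _x_at probe sets were dropped. TNIP1 then had 0.34 (limma adjusted p = 0.0919), at a dim probe set with a control mean of 1.18 against 8.46 at the first. Among AP-1 and C/EBP genes, whose products bind the CXCL8 promoter beside NF-kB, 9 of 11 rose and 0 fell (0 at an unadjusted p under 0.05), with a median of 1.49. ATF3 (3.53, adjusted p = 7.5e-06), FOS (1.82, adjusted p = 0.000265), FOSL2 (1.64, adjusted p = 3.6e-05), JUN (1.64, adjusted p = 7.29e-05) and CEBPD (1.62, adjusted p = 4.84e-05) led them. The beta-actin value was likewise higher in shFRY, and its part in these lists was examined only through that covariate.

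Genes for the decay and stability of chemokine mRNA moved in both directions, with 2 of 9 higher and 1 lower in limma (median 0.05), against 13.7% of all genes higher and 16.0% lower. ZFP36 (1.24, adjusted p = 0.00015) and ZFP36L1 (0.90, adjusted p = 0.000495), which encode proteins that destroy mRNA with AU-rich elements, rose. ELAVL1, whose product stabilises such mRNA, fell by 0.97 (adjusted p = 0.00796), and with the beta-actin covariate was at -1.27 (adjusted p = 0.128). Nothing is read from the counts of this list or the next, both chosen with earlier results of these data known. Of 7 other secreted factors that act on myeloid cells 5 rose and 0 fell (0 at an unadjusted p under 0.05, median 1.97). S100A8 (4.69, adjusted p = 3.77e-06) and S100A9 (1.64, adjusted p = 0.00104), calcium-binding alarmins, IL6 (2.77, adjusted p = 3.76e-05), the granulocyte growth factor gene CSF3 (2.30, adjusted p = 0.000547) and CCL20 (1.97, adjusted p = 8.25e-06) were those 5. CSF3 was at 1.31 with the beta-actin covariate (adjusted p = 0.0982).

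**Figure D4:**
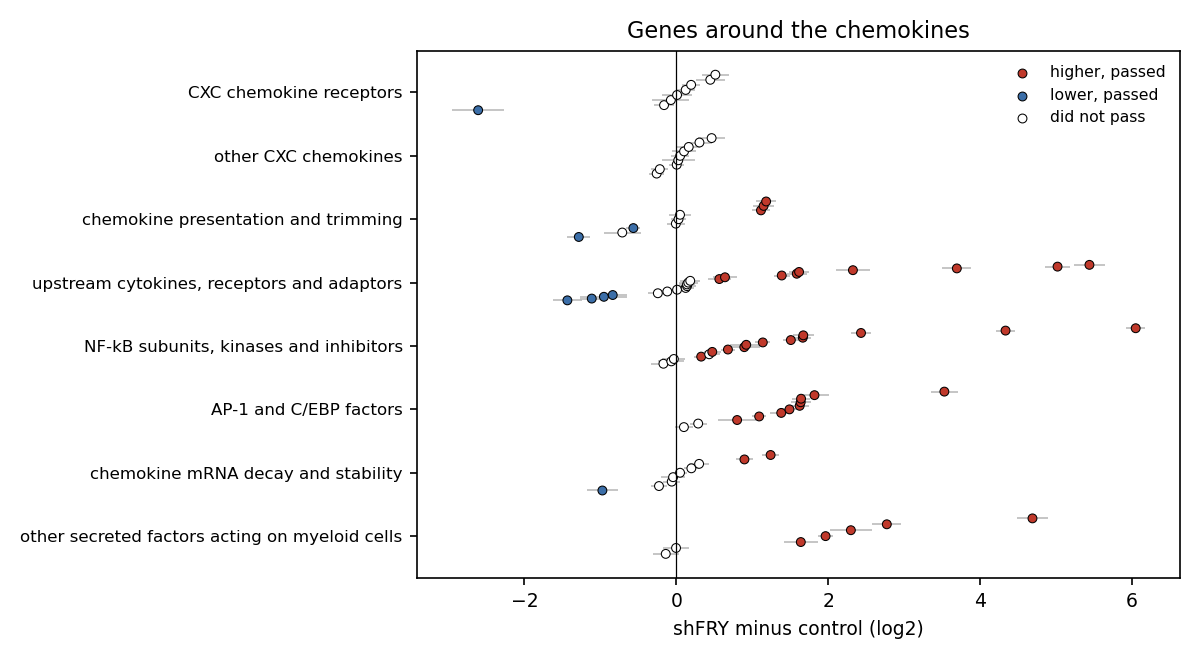
Log2 difference of shFRY minus control (x axis, with its standard error) for the measured genes of 8 lists around the chemokines; filled points passed a limma adjusted p of 0.05 over all genes (red higher, blue lower) and open points did not. Points of the NF-kB and the AP-1 and C/EBP lists lie mostly to the right of 0, and those of the other CXC chemokines close to 0.

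The profiles nearest to CXCL1 over the 6 samples were those of CXCL3 and CXCL2, and the one nearest to CXCL8 at 211506_s_at was that of TNIP3, outside the family. Each gene was taken at the probe set that represents it, which for CXCL8 is 211506_s_at. CXCL8 202859_x_at, whose log2 difference of 6.95 is nearer to those of CXCL1 and CXCL3, was not compared. The orders given here therefore hold for the representing probe sets only. Likeness was the root mean square distance between log2 values centred on each gene's own mean. CXCL3 was nearest to CXCL1 (0.21, r = 0.999), followed by CXCL2 (0.71). The nearest genes outside the family were TNIP3 (distance 0.73), IL13RA2 (0.80), a decoy receptor gene for interleukin-13, PID1 (0.88), IRAK2 (1.04) and SPX (1.26). For CXCL8 they were TNIP3 (0.33), IRAK2 (0.44), SOX5 (0.46), PID1 (0.48) and the prostaglandin synthase gene PTGS2 (0.48), and within the family CXCL2 (0.41), CXCL3 (0.90, rank 28 of all genes) and CXCL1 (1.03, rank 32). TNIP3, IRAK2 and PID1 were on both lists. PF4 followed the direction of CXCL1 over the 6 samples (r = 0.98) but not its size (distance 3.53). The 6 samples fall in 2 groups of 3, so these measures mostly reflect the difference between the groups.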

How the data were processed

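Gene expression was measured on 1-colour arrays of 54675 probe sets in 6 samples. The authors deposited log2 values; the submitters' processing notes name RMA, with software and settings not given in the sources used here. The values were used unaltered, and no scanner file was used. Of these, 62 were controls; 41091 of the others had 1 gene symbol in the platform annotation, 1801 several (not named) and 11721 none. Symbols were updated through Entrez IDs to RefSeq GRCh38.p14. Each of 19775 genes was represented by its probe set with the highest mean.

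Groups were compared with limma 3.58.1 in R 4.3.3 (lmFit, eBayes) over all genes, or over all 54613 probe sets other than controls for the family's probe sets, FRY and second probe sets of a gene, with Benjamini and Hochberg adjustment and a threshold of 0.05. The limma comparison of the groups, and no other step, was tried on simulated data. Promoter matches and alignments used Python 3.11.15 and Biopython 1.88. The members, the 8 gene lists and the 5 marker lists were chosen with earlier results of these data known. Of each list up to 5 genes past the threshold with the largest absolute difference are named (where none passed, the 2 with the smallest p), with CXCR1, CXCR2, every neighbour that passed and the 5 nearest profiles. Listed genes without a probe set naming them alone include IRAK4, BCL3, ZC3H12A, MAPK14, CSF2, KRT17 and TP63. IL1A 208200_at, the other CXCR4 probe sets, ACKR3, CXCR6, PPBPP2, TLR4, IL17RA, IL1R1, TLR3, EPCAM, CDH1, the keratins and PTPRC were named outside this rule. Fibroblast and endothelial markers had 0 and 1 of 5 genes higher and 1 and 0 lower (limma; 0 and 1 higher and 1 and 0 lower at an unadjusted p under 0.05). Over all genes 13.7% were higher and 16.0% lower. The number of arrays limits the precision.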

Additional observations from a re-analysis of the deposited data

How the results depend on the processing

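The 14 alternatives were median centring, another quantile normalization, a variance trend with robust fitting, dropping probe sets below the median of means, averaging all probe sets of 1 gene, dropping the _x_at and _s_at kinds, the replicate number as a block, the beta-actin covariate, and each of the 6 samples left out. The count of genes past the threshold was 5889 and lay between 4394 and 6422 under 13 of them. With the beta-actin covariate it was 1026, and the listed genes passing as lower went from 8 to 0 (7 at an unadjusted p under 0.05 in limma). The neighbours passing as higher went from 7 to 1 (6 of all 22 neighbours at an unadjusted p under 0.05 in limma). RASSF6 (1.79) and MTHFD2L (0.91) were about as large as before, and LOC105377276 (0.30), BTC (0.41) and RCHY1 (0.26) were smaller. That covariate takes 1 of 4 residual degrees of freedom. It was 2.33 to 2.71 in control and 2.84 to 2.89 in shFRY, so it cannot be fully separated from the group. Standard errors were larger with it, for example 0.31 in place of 0.16 for CXCL1 and 0.20 in place of 0.10 for PF4. A gene that no longer passed therefore need not have had a smaller difference. The cause of the lower counts was not tested. Without _x_at and _s_at probe sets, 4 probe sets of the family remained at least 2-fold higher in place of 7 (5 above the median of means), since CXCL2 209774_x_at and both of CXCL8 are of those kinds. ANPEP then stood at 0.18 in place of -0.57, at a dim probe set. Samples with the same number did not deviate together (r = -0.0002, -0.0024 and 0.0068 over genes), so the numbers are taken as names only. With the replicate block 5330 genes, 38 listed genes as higher in place of 40 and 6 neighbours in place of 7 passed, BTC, KRT18 (limma adjusted p = 0.0508) and CDH1 (0.0768) no longer passing; FRY at 214319_at, the probe set that represents the gene (limma adjusted p = 0.0259), and ACKR3 (0.0232) passed. Averaging over probe sets does not apply to single probe sets of the family, whose count was 7 with each sample left out. The listed genes passing as higher lay between 30 and 42 under all 14.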

Other observations

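The NF-kB core GGAANTTCC in the 250 bases before the start was also counted over all measured genes outside the family that have a RefSeq promoter in the table. Of 164 such genes with a match, 33 (20.1%) were higher and 23 (14%) lower in shFRY by limma, with a median log2 difference of 0.12. Of 15213 genes without a match, 2178 (14.3%) were higher and 2560 (16.8%) lower, with a median of 0.02. The difference between these shares was not tested, and most genes with a match did not pass in either direction.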
